A study of Mus musculus with 16 samples.

Results

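The actin cytoskeleton and its serum response factor (Srf) program were followed through 10 genes of the 45777 genes listed for B16F10 melanoma tumors grown in lean and obese mice. The members were taken by gene symbol and comprise the actins Actb, Actg1 and Acta2, the actin binding genes Tagln, Cnn2, Tpm1 and Tpm4, the myosin light chain Myl9, the transcription factor Srf and the focal adhesion gene Vcl. They were proposed by name with the read counts and TPM values (transcripts scaled for gene length and library) of these same tumors in view, and are treated as selected on those values, so the values below describe them and are not independent evidence of a direction. All 10 were among the 16209 genes with a count above 0 in every tumor. Actb carries a further interest, because beta-actin was the gene to which the study normalized its quantitative RT-PCR.

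The 16 tumors came from B16F10 cells, a single melanoma line, placed under the flank skin of mice that were 6 weeks old. The hosts were C57BL/6J mice, called lean, or leptin-deficient ob/ob mice (genotype C57BL/6J-ob/ob), called obese. Tumors were taken before therapy (lean tumors and obese tumors) or after etoposide (ETS, a topoisomerase II poison), given intraperitoneally at 20 mg per kg on 5 occasions (lean ETS and obese ETS tumors), with 4 tumors in each group. Tumors before therapy are the baseline, and no vehicle group was analysed here, so ETS and time cannot be told apart. The labels do not say that the 4 tumors of a group came from 4 mice, and p-values measure the spread between these tumors.

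Actin monomers polymerize into filaments that carry force and shape, and the same monomers hold the coactivators Mrtfa and Mrtfb in the cytoplasm. As monomers are used up, Mrtfs enter the nucleus and join Srf on CArG boxes, short elements in the promoters of actins, actin binding genes and Srf itself. Beta- and gamma-actin are made in nearly every cell, whereas Acta2, Tagln and Myl9 are best known from smooth muscle, pericytes and activated fibroblasts.

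CArG boxes were searched on both strands, as exact matches, in RefSeq promoter windows of mouse build GRCm38.p6. These run from 250 bases before to 50 bases after a start given for the gene. A window was at hand for 8 of the 10 members, all but Actb and Tagln. Of these, 5 held a box in a window (62.5%), beside 11 of 82 other actin and Srf genes with a window (13.4%). Of all 27025 genes with a window 1.81% held one, and of all 32851 windows 1.63%. The windows that hold the boxes, in capitals, are printed as sequence that was not part of the choice by value. The members were grouped as actin and Srf target genes, a class known for such boxes, so their share with a box is no independent result. Positions count from the start used for the window, which can lie inside the gene, as for Srf and Acta2.
Actg1 (chr11:120348546-120348615, minus strand, box from -90): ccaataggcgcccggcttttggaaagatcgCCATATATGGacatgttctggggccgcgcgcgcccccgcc
Myl9 (chr2:156775273-156775342, plus strand, box from -161): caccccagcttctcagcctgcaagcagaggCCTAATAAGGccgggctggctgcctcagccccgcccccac
Cnn2 (chr10:79988514-79988583, plus strand, box from -56): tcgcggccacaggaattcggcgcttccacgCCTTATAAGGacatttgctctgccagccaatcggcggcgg
Srf (chr17:46556185-46556274, minus strand, boxes from -82 and -62): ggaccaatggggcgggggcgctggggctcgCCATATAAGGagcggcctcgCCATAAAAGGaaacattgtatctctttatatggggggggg
Vcl (chr14:20929148-20929210, plus strand, box from -227): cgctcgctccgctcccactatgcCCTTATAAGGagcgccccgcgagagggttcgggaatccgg
The Acta2 window held no exact box and 2 stretches with 9 of the 10 bases of a box. The printed pieces overlap an exon and an untranslated region annotated in GENCODE M21.
Acta2, from -84 (chr19:34255438-34255467, minus strand): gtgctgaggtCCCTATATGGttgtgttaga
Acta2, from -34 (chr19:34255388-34255417, minus strand): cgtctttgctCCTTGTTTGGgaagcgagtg
Boxes or stretches with 9 of 10 bases are common, standing in 21.1% of all windows. By gene, 7 of the 8 members with a window held one (87.5%), beside 23.8% of all genes with a window. Of the stretches with 9 of 10 bases only those of Acta2 are printed.

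Counts summed to between 47199949 and 61655287 per tumor, so that the lowest count of any member was 146, for Tagln. Levels are given as library-scaled read counts after TMM scaling (CPM), which compares tumors for 1 gene, and as TPM where genes are compared with each other. The edgeR quasi-likelihood test was fitted to all tested genes and adjusted over them by Benjamini and Hochberg, and a gene is called at an adjusted p under 0.05. On log2(TPM + 1), without TMM scaling, the median of all tested genes itself shifted by -0.28 with ETS in lean tumors and by -0.05 in obese tumors, and the share of called genes that were higher in lean tumors was 15.7% in place of 48.0%. Markers of melanocytes were abundant in all tumors (7 of 7 detected, summed level 10692 to 26070 CPM). Skeletal muscle markers summed to between 49.4 and 474 CPM in 5 tumors (lean 2 and 4, lean ETS 1 and 2, obese ETS 2) and to at most 4.71 CPM in the other 11, and results are also given without these 5. Keratinocyte markers summed to 127 CPM in obese ETS tumor 2 and to at most 3.37 CPM in any other tumor.

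Before therapy the members spanned a wide range of abundance in lean tumors. Actg1 led with 3172 ± 203 TPM (SD, n = 4), followed by Actb with 2639 ± 306 TPM. Tpm1 (577 ± 88.6 TPM) and Tpm4 (328 ± 38.4 TPM), which stabilize filaments, came next. Cnn2, a calponin, stood at 164 ± 28.7 TPM, Vcl (vinculin, the link between integrins and actin) at 71.3 ± 14.2 TPM and Srf at 47.2 ± 2.97 TPM. The smooth muscle genes closed the order, with Myl9 at 24.3 ± 6.03, Acta2 at 21.9 ± 2.95 and Tagln (transgelin) at 9.06 ± 2.52 TPM. Of neighbors in this order only Myl9 and Acta2 had overlapping ranges. The order of the first 6 was the same in the mean TPM of all 4 groups, while in obese ETS tumors Acta2 (29.4 ± 7.68 TPM) and Myl9 (27.0 ± 5.09 TPM) stood above Srf (25.9 ± 3.80 TPM), with overlapping ranges.

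**Figure D1:**
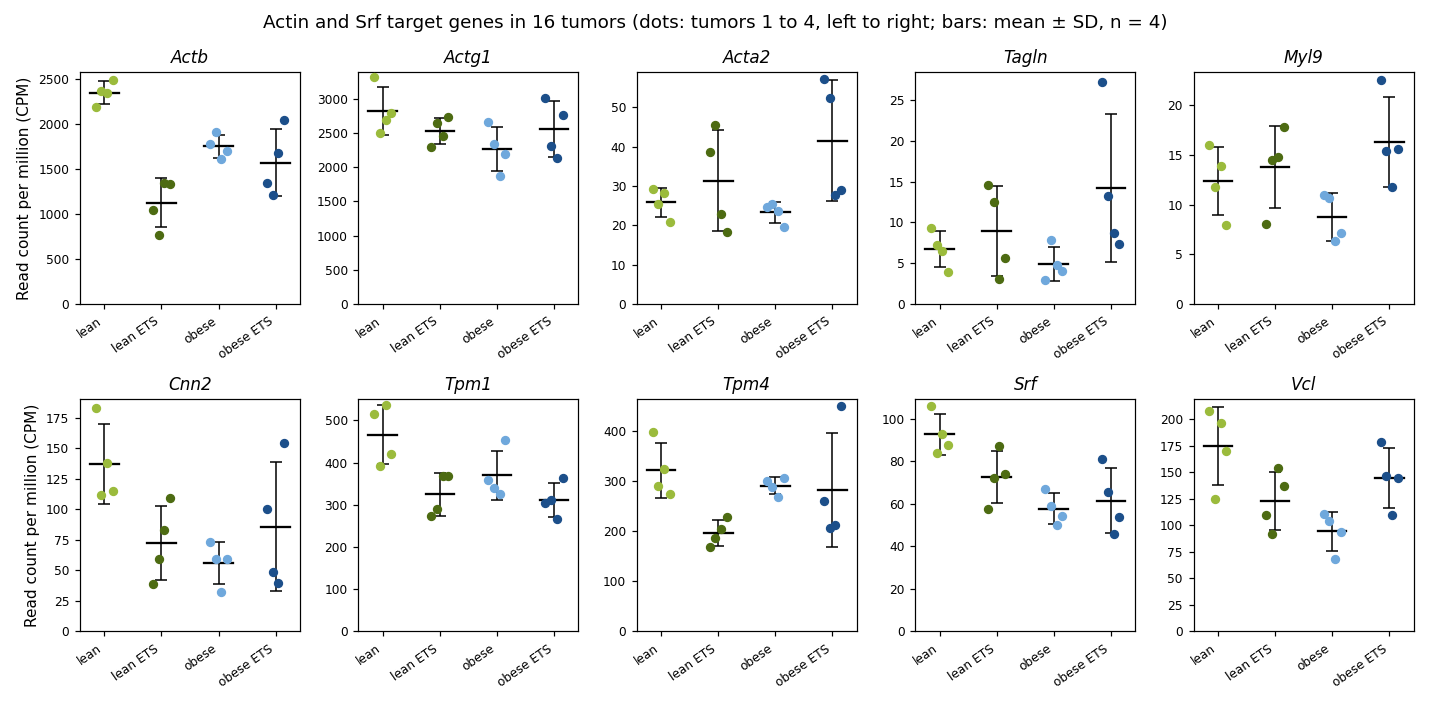
CPM of the 10 genes in each tumor (dots, tumors 1 to 4 from left to right within a group), with the mean and SD of 4 tumors as bars; each panel has its own axis from 0. The 4 lean ETS tumors lie between 769.9 and 1347 CPM for Actb, below all 4 lean tumors (2187 to 2489 CPM), while Actg1 overlaps between all groups.

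Lean ETS tumors held less beta-actin mRNA than lean tumors. Actb stood at 2187, 2362, 2346 and 2489 CPM in lean tumors 1 to 4, and at 1049, 769.9, 1347 and 1328 CPM in lean ETS tumors 1 to 4. No lean ETS tumor reached the lowest lean tumor, and the mean fell from 2346 ± 124 to 1124 ± 272 CPM. The edgeR log2 fold change was -1.06 ± 0.18 (SE), a 2.09-fold lower level (adjusted p = 0.000351). Gamma-actin, which differs from beta-actin by a few residues and is likewise ubiquitous, did not pass the test. Actg1 stood at 3321, 2505, 2687 and 2792 CPM in lean tumors and at 2299, 2639.6, 2452 and 2729 CPM in lean ETS tumors. These ranges overlap, and the log2 fold change was -0.16 ± 0.14 (edgeR adjusted p = 0.377); on log2(TPM + 1) it was -0.53 and passed (limma adjusted p = 0.00402), against the median shift of -0.28 on that scale.

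Of the 10 members, 4 were lower in lean ETS tumors (Actb, Tpm1, Tpm4, Vcl) and none was higher, where 22.8% of all tested genes were lower and 21% were higher. These calls come from the tumors with which the genes were selected, and nothing is read from the count. The members' median log2 fold change was -0.43, beside -0.01 for all tested genes. Tpm1 fell from 515, 392.1, 537 and 421 CPM to 273, 290.3, 368 and 368 CPM (log2 fold change -0.52 ± 0.14, edgeR adjusted p = 0.00903). Tpm4 fell from 399, 289.8, 325 and 275 CPM to 168, 187, 205 and 229 CPM (log2 fold change -0.71 ± 0.20, adjusted p = 0.0116). For both tropomyosins every lean ETS tumor was below every lean tumor.

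Vinculin was close to the threshold. Vcl stood at 208, 125, 197 and 170.4 CPM in lean tumors and at 109.9, 91.9, 154 and 137 CPM in lean ETS tumors, and the ranges overlap through lean tumor 2. Its log2 fold change was -0.51 ± 0.20 (edgeR adjusted p = 0.0495), and the call was lost in 11 of the 16 fits that each left out a tumor, with adjusted p between 0.0204 and 0.142. Cnn2 stood at 183, 112, 138 and 115 CPM in lean tumors and at 38.5, 59.6, 82.8 and 109 CPM in lean ETS tumors. Its groups do not overlap, yet it missed the threshold (log2 fold change -0.92 ± 0.39, edgeR adjusted p = 0.0708).

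Srf itself stood at 106, 84.1, 92.9 and 87.9 CPM in lean tumors and at 57.5, 72.4, 87.1 and 74.0 CPM in lean ETS tumors (log2 fold change -0.35 ± 0.16, edgeR adjusted p = 0.0879). Only lean ETS tumor 3 reached the lean range. On log2(TPM + 1) the value for Srf was -0.74 and passed (limma adjusted p = 0.000890). The smooth muscle genes showed no call in lean tumors. Acta2 ranged from 20.9 to 29.1 CPM before and stood at 38.6, 45.3, 22.9 and 18.3 CPM after ETS, and Tagln ranged from 3.96 to 9.35 CPM before and stood at 14.6, 12.5, 3.06 and 5.67 CPM after. Lean ETS tumors 1 and 2, the high ones in both genes, are also those with skeletal muscle markers at 387 and 224 CPM. The log2 fold changes were 0.28 ± 0.27 for Acta2 and 0.40 ± 0.48 for Tagln (edgeR adjusted p = 0.433 and 0.518). Without the 5 tumors that held skeletal muscle RNA they were -0.46 and -0.85 (adjusted p = 0.341 and 0.404), and without TMM scaling -0.17 and -0.12, so no direction is given for either. Myl9 ranged from 7.96 to 16.02 CPM before and from 8.04 to 17.8 CPM after ETS (log2 fold change 0.15 ± 0.27, adjusted p = 0.677).

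Without the 5 tumors with skeletal muscle RNA, which left 2 lean and 2 lean ETS tumors, Actb alone was called (log2 fold change -0.75, edgeR adjusted p = 0.0432). Tpm1 and Tpm4 kept values of -0.50 and -0.73 there (adjusted p = 0.107 and 0.124). Other cell types changed in the same tumors. Macrophage markers (6 of 6 detected) summed to between 225 and 727 CPM in lean tumors and to between 36.8 and 179.8 CPM in lean ETS tumors, and fibroblast markers (7 of 7 detected) to between 515 and 2178 CPM and between 89.0 and 586 CPM. In whole tumors fewer cells of a type and less RNA per cell cannot be told apart, and the part of these cell types in the values of the members was not tested.

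In obese tumors the smooth muscle genes Acta2, Tagln and Myl9 and the focal adhesion gene Vcl were called higher after ETS, and Actb was not called. Acta2 stood at 24.8, 25.4, 23.6 and 19.5 CPM in obese tumors and at 57.0, 52.3, 27.6 and 29.1 CPM in obese ETS tumors (log2 fold change 0.83 ± 0.28, edgeR adjusted p = 0.0259). All 4 obese ETS tumors were above all 4 obese tumors, tumors 1 and 2 by far the most. Tagln rose from 3.02, 7.86, 4.79 and 4.01 CPM to 27.2, 13.3, 8.76 and 7.41 CPM (log2 fold change 1.52 ± 0.49, adjusted p = 0.0236), with an overlap between obese tumor 2 and obese ETS tumor 4. Myl9 rose from 10.96, 10.7, 6.33 and 7.12 CPM to 22.5, 15.4, 11.7 and 15.6 CPM with no overlap (log2 fold change 0.90 ± 0.28, adjusted p = 0.0186).

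Vcl rose from 110.4, 104, 68.8 and 93.9 CPM to 179, 146, 110.004 and 145 CPM (log2 fold change 0.62 ± 0.20, edgeR adjusted p = 0.0221). Only obese ETS tumor 3 fell within the obese range. Thus 4 of 10 members were higher and none lower, where 21.2% of all tested genes were higher and 19% lower; the members' median log2 fold change was 0.40, beside 0.01 for all tested genes. The calls depended on single tumors. None of the 4 held without obese tumor 3 or without obese ETS tumor 1, and only Vcl held without obese tumor 4. Acta2 also lost its call without obese ETS tumor 2, and Tagln without obese tumor 1. All 4 held without the 5 tumors with skeletal muscle RNA.

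The other 6 members were not called in obese tumors. Actb stood at 1778, 1909.6, 1611 and 1699 CPM before and at 1345.5, 1214, 1676 and 2045 CPM after ETS (log2 fold change -0.16 ± 0.18, edgeR adjusted p = 0.511). The obese ETS tumors lay on both sides of the obese ones. Actg1 ranged from 1877 to 2659 CPM before and from 2133 to 3015 CPM after (0.18 ± 0.14, adjusted p = 0.345). Tpm1 (-0.25 ± 0.14, adjusted p = 0.179), Tpm4 (-0.04 ± 0.20, adjusted p = 0.894), Srf (0.09 ± 0.16, adjusted p = 0.680) and Cnn2 (0.62 ± 0.39, adjusted p = 0.225) were likewise below the threshold. Cnn2 and Tpm4 had 1 high tumor after ETS, obese ETS tumor 4, at 155 and 450.2 CPM against at most 99.96 and 261 CPM in the other 3.

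The same obese ETS tumors differed from obese tumors in their cell type markers. Pericyte and smooth muscle markers (8 of 8 detected) summed to between 451 and 572 CPM, against 188 to 250.2 CPM before therapy. This sum mainly follows Mcam, with a mean of 209 CPM over all tumors, against at most 29.9 CPM (Rgs5) for the other tested markers. Which cells made Mcam was not tested. Fibroblast markers summed to between 593 and 5653 CPM, against 86.3 to 594 CPM, with the highest sum in obese ETS tumor 4. Obese ETS tumor 1, the highest tumor for Acta2, Tagln, Myl9, Srf and Vcl, had the highest endothelial sum (320.1 CPM) and skeletal muscle markers at 4.66 CPM. In lean ETS tumors the pericyte and smooth muscle sum was also above that of lean tumors (267 to 362 against 191 to 232 CPM), but of its 7 tested genes only Mcam and Des were called higher there, while Pdgfrb, Rgs5 and Myh11 were called lower. In obese ETS tumors 5 of the 7 were called higher and none lower (21.2% and 19% of all tested genes). Macrophage markers summed to between 172 and 656 CPM, above the 34.4 to 167 CPM of obese tumors, and 4 of 6 were called higher and none lower. The part of these cells in the rise of the members was not tested.

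**Figure D2:**
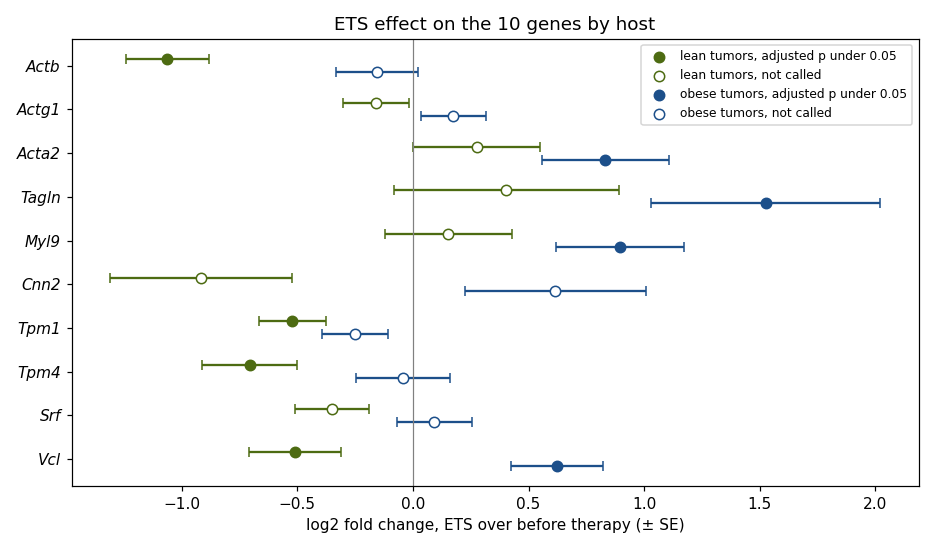
Log2 fold change with ETS in lean and in obese tumors for each gene, with the SE of the edgeR fit as horizontal bars; filled symbols are called at an adjusted p under 0.05. Actb, Tpm1, Tpm4 and Vcl are filled to the left of 0 in lean tumors, and Acta2, Tagln, Myl9 and Vcl to the right of 0 in obese tumors.

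The effect of ETS differed between hosts for 2 members. For Actb the difference of the effects, lean minus obese, was -0.91 ± 0.25 on the log2 scale (edgeR interaction term, adjusted p = 0.0224). For Vcl, with opposite calls in the 2 hosts, it was -1.13 ± 0.28 (adjusted p = 0.0127). These are 2 of 10 members with a lower effect in lean tumors and none with a higher one, where 10.1% of all tested genes were lower and 6.35% higher. Cnn2 had a difference of -1.53 ± 0.56 that missed the threshold (adjusted p = 0.0731). The smooth muscle genes were not shown to differ between hosts (Acta2 -0.56 ± 0.39, Tagln -1.12 ± 0.69, Myl9 -0.74 ± 0.39, adjusted p = 0.360, 0.294 and 0.213), although they were called in obese tumors alone. Both calls were lost without the 5 tumors with skeletal muscle RNA, where Actb stood at -0.71 and Vcl at -1.09 (adjusted p = 0.155 and 0.0567).

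Before therapy obese tumors held less of 3 members. Vcl ranged from 68.8 to 110.4 CPM in obese against 125 to 208 CPM in lean tumors (log2 fold change, obese over lean, -0.89 ± 0.20, edgeR adjusted p = 0.00418). Srf stood at 67.2, 59.0, 50.03 and 54.5 CPM against 84.1 to 106 CPM (-0.69 ± 0.16, adjusted p = 0.00564), and Cnn2 at 72.9, 59.2, 32.6 and 59.3 CPM against 112 to 183 CPM (-1.29 ± 0.40, adjusted p = 0.0257). For all 3 the groups do not overlap, here as elsewhere a description, because the share of all tested genes without overlap was not counted. Thus 3 of 10 members were lower and none higher, where 12.9% of all tested genes were lower and 13.5% higher, and the members' median was -0.44, beside 0.02 for all tested genes. The 3 were also called without the 5 tumors with skeletal muscle RNA, while Cnn2 lost its call without lean tumor 1, obese tumor 3 or obese tumor 4. Actb was lower in every obese tumor than in any lean tumor but missed the threshold (-0.42 ± 0.18, adjusted p = 0.0924). Macrophage markers were lower in obese tumors as well (34.4 to 167 against 225 to 727 CPM), and T cell markers, at 17.9 to 33.6 CPM in lean tumors, summed to at most 1.62 CPM in all other tumors. Melanocyte markers summed to between 11168 and 15086 CPM in obese against 18067 to 22652 CPM in lean tumors, and 3 of 7 were called lower and none higher. Endothelial sums also lay lower (101.3 to 137.7 against 138.4 to 163.9 CPM), with 3 of 6 called lower and none higher. The part of these cells in the values of the members was not tested.

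After ETS no member differed between hosts by edgeR, where 2.3% of all tested genes were lower and 3.28% higher in obese ETS tumors. Actb (0.48 ± 0.18, unadjusted p = 0.0156, adjusted p = 0.109) and Tpm4 (0.52 ± 0.20, unadjusted p = 0.0218, adjusted p = 0.129) were the 2 with an unadjusted p under 0.05 in this fit. DESeq2, the exact test and limma on log2(TPM + 1) called none either. The comparisons before therapy, after ETS and of the ETS effects share their tumors, so the values of a gene in them are not separate evidence.

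The balance of the actins shifted in lean ETS tumors, a ratio examined after the values were seen and given as a description. The TPM of Actb divided by that of Actg1 was 0.655, 0.937, 0.868 and 0.886 in lean tumors and 0.454, 0.290, 0.546 and 0.484 in lean ETS tumors, with no overlap. It was 0.665 to 0.853 in obese tumors and 0.444, 0.521, 0.781 and 0.734 in obese ETS tumors. In both treated groups tumors 1 and 2 had less Actb and more Acta2 than tumors 3 and 4, although equal numbers do not mark the same mouse. Of these tumors 1 and 2, all but obese ETS tumor 1 hold skeletal muscle RNA (387, 224 and 474 CPM). They also have the lowest TMM factors of the 16 tumors (0.869 to 0.943). The part of either in this split was not tested. After subtraction of the group means, log2 CPM of Actb and Acta2 gave a Pearson r of -0.84 and a Spearman coefficient of -0.83 over 16 tumors, the lowest of the 45 pairs of members, whose median r was 0.40. The highest was Cnn2 with Tpm4 (r = 0.87, Spearman coefficient 0.91). Acta2 and Tagln had an r of 0.79, whereas Myl9 had 0.16 with Acta2, 0.13 with Tagln and 0.79 with Srf. These values describe tumors that share libraries and scaling, and carry no test.

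**Figure D3:**
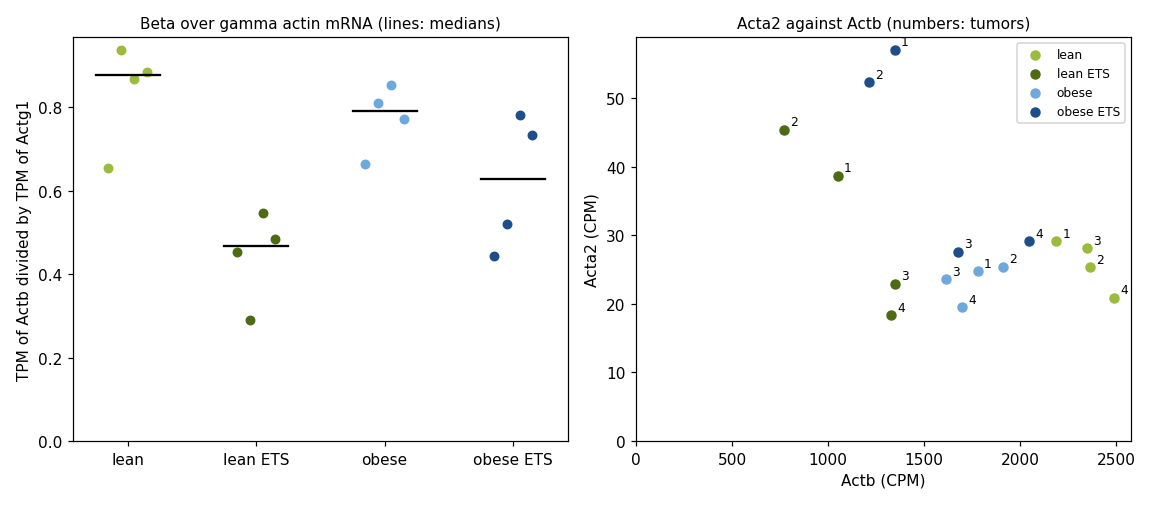
Left, the ratio of Actb to Actg1 in TPM for each tumor, with the group median as a line; right, Acta2 against Actb in CPM, with tumor numbers. Lean ETS ratios lie between 0.290 and 0.546, below all lean tumors, and the 4 points above 38 CPM of Acta2 are tumors 1 and 2 of both treated groups. Of those 4, all but obese ETS tumor 1 hold skeletal muscle RNA.

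The tested genes closest to Actb by the same within-group correlation were Pam (r = 0.93), Tbck (0.93), Zeb2 (0.92), Cpe (0.92) and Gm13767 (0.91), over 16 tumors. Those closest to Acta2 were Zdhhc4 (0.91), Akr1a1 (0.90), Dgat1 (0.90), Gna11 (0.89) and Ebpl (0.89). Those closest to Srf were Wfikkn2 (0.94), Slc40a1 (0.94), Ssbp3 (0.91), Trim35 (0.90) and Ube2r2 (0.90). No other member was among them. They were picked as the highest of 16209 genes and carry no test.

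Because Actb served as the RT-PCR reference, it was set beside 15 other genes in common use as references. In lean tumors their log2 fold changes with ETS ran from -0.59 ± 0.17 (Ywhaz, a 14-3-3 protein) to 0.65 ± 0.18 (Gapdh, of glycolysis), with a median of 0.17, and Actb at -1.06 lay below all 15. In obese tumors they ran from -0.48 (Ywhaz) to 0.80 (Gusb), with a median of -0.10, and Actb at -0.16 lay within them. Of the 15, 5 were higher and 2 lower in lean ETS tumors (21% and 22.8% of all tested genes). In obese ETS tumors 2 were higher and 5 lower (21.2% and 19% of all tested genes). Actb made up 0.215% to 0.263% of all counts in lean tumors and 0.0668% to 0.132% in lean ETS tumors.

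**Figure D4:**
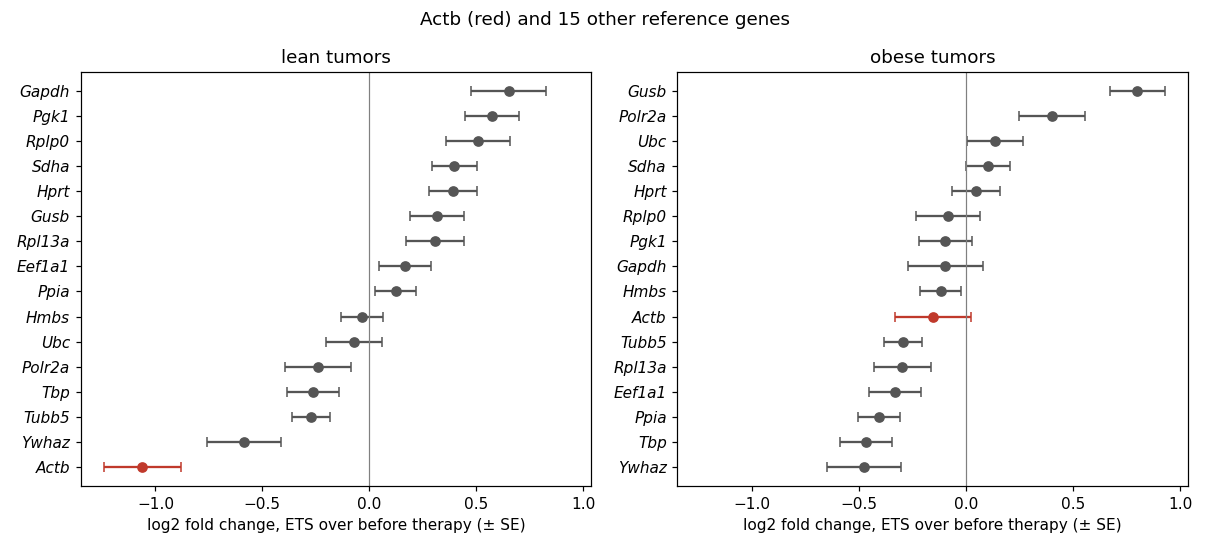
Log2 fold change with ETS of Actb (red) and 15 reference genes (gray) in lean tumors (left) and obese tumors (right), each panel sorted by value, with the SE as bars. Actb is the lowest gene in lean tumors, at -1.06, and stands within the others in obese tumors, at -0.16.

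The choice of reference was then carried through to fatty acid oxidation (FAO), the readout of the RT-PCR, with 15 FAO genes such as Cpt1a (entry of fatty acids into mitochondria) and Acadm (a dehydrogenase of medium chains). For each tumor the mean log2(count + 1) of these genes was taken relative to that of a reference. Relative to Actb it was -5.48, -5.81, -5.90 and -5.82 in lean tumors and -4.05, -3.65, -4.59 and -4.61 in lean ETS tumors, which is higher by 1.53 without overlap (exact permutation test, two-sided, p = 0.0286, the smallest that 4 against 4 tumors allow). In obese tumors it went from between -5.14 and -4.93 to -4.16, -4.03, -4.64 and -5.13, higher by 0.57 on average (exact permutation test, p = 0.114). The difference of the rises, lean minus obese, was 0.95 (exact permutation test with host labels permuted within each time, p = 0.0249). That test, also used for the host differences below, supposes no host difference at either time, so a gap before therapy enters its p-value. Before therapy the means were -5.75 in lean and -5.06 in obese tumors, without overlap, and after ETS -4.22 and -4.49. Actb is a member treated as selected on these values, and its own ETS effect differed between hosts by -0.91. The p-values relative to Actb are therefore no independent evidence about the FAO genes.

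The order of the hosts followed the reference. Relative to the mean of the 15 reference genes the FAO genes rose by 0.30 in lean and by 0.48 in obese tumors (exact permutation test, p = 0.0286 in each), and the difference was -0.18 (p = 0.237 by exact permutation). Relative to Tbp, a subunit of the basal transcription machinery, the rises were 0.70 and 0.87 and the difference -0.18 (exact permutation p = 0.0286, 0.0286 and 0.510). Relative to Gapdh the value changed by -0.23 in lean and 0.50 in obese tumors (exact permutation p = 0.114 in each), and the difference was -0.73 (exact permutation p = 0.0237). A greater rise in lean tumors was thus seen with Actb and not with these 3 references. Gapdh and Tbp are themselves among the 15 genes of the mean. With ETS, Gapdh changed by 0.65 in lean and -0.10 in obese tumors, and Tbp by -0.26 and -0.47. Apart from RT-PCR, the study also compared the hosts by pathway and gene set analysis of its RNA-seq, which was not repeated here. By edgeR with TMM scaling, 8 of the 15 FAO genes were higher in lean ETS tumors and 10 in obese ETS tumors, and none was lower in either. Of all tested genes 21% and 21.2% were higher there. For the difference of the ETS effects, 2 of the 15 were called, both lower in lean tumors, where 10.1% of all tested genes were lower.

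**Figure D5:**
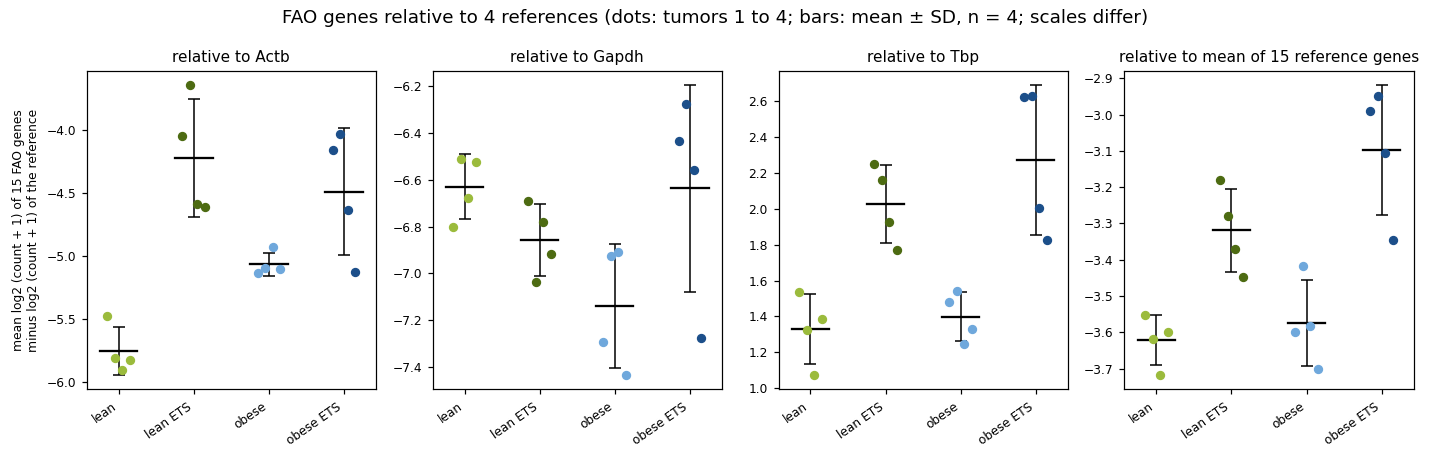
Mean log2(count + 1) of 15 FAO genes minus that of the reference in each tumor, for Actb, Gapdh, Tbp and the mean of 15 reference genes (panels from left to right, each with its own axis), with the mean and SD of 4 tumors. Relative to Actb the lean values rise by 1.53 and the obese by 0.57; relative to the mean of 15 genes they rise by 0.30 and 0.48.

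Around the 10 members stood 100 other genes of actin and Srf biology, of which 96 were tested. With ETS in lean tumors 16.7% were higher and 28.1% lower (16 and 27 genes, median -0.10), near the 21% and 22.8% of all tested genes. In obese tumors 34.4% were higher and 7.29% lower (33 and 7 genes, median 0.23), where all tested genes had 21.2% and 19%. For the difference of the effects 4 were higher and 21 lower in lean tumors (6.35% and 10.1% of all tested genes), and before therapy 5 were higher and 21 lower in obese tumors (13.5% and 12.9%). After ETS 8 were higher and 2 lower in obese tumors (3.28% and 2.3%). Without the 5 tumors with skeletal muscle RNA, 9 in place of 43 were called in lean tumors, 9 in place of 25 for the difference and 11 in place of 26 before therapy. This list, too, was drawn up with results of these tumors known.

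Srf works through its cofactors, and of 6 tested ones 2 were higher and 2 lower in lean ETS tumors (21% and 22.8% of all tested genes). Mrtfb fell (log2 fold change -0.51 ± 0.15, edgeR adjusted p = 0.0134) from a range of 32.9 to 53.0 CPM to one of 22.8 to 37.5 CPM. Its effect differed between hosts (-0.66 ± 0.21, adjusted p = 0.0471). Mrtfa did not pass in any of these comparisons (-0.16 ± 0.08 in lean and 0.16 ± 0.08 in obese tumors, adjusted p = 0.118 and 0.137). Myocd, the cofactor of muscle, had a count of 0 in 1 tumor and at most 22 in any other. The ternary complex factor Elk4 fell in lean tumors (-1.15 ± 0.23, adjusted p = 0.00113), while Elk1 (0.49 ± 0.13, adjusted p = 0.00783) and Elk3 (0.43 ± 0.13, adjusted p = 0.0136) rose.

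Among immediate early targets of Srf, 3 of 7 were lower and none higher in lean ETS tumors (22.8% and 21% of all tested genes). In obese ETS tumors 2 of 7 were higher and none lower (21.2% and 19% of all tested genes). Egr1, a growth response factor, went from 11.5, 14.2, 14.8 and 7.50 CPM in lean tumors to 2.60, 3.64, 2.08 and 2.42 CPM in lean ETS tumors. No treated tumor reached the untreated range (log2 fold change -2.16 ± 0.34, edgeR adjusted p = 0.000193). Egr2 had a like change in lean tumors (-2.17 ± 0.52, adjusted p = 0.00386) but was higher in obese ETS tumors (1.51 ± 0.51, adjusted p = 0.0276). Of 7 other tested Mrtf and Srf targets 5 rose in obese tumors and none fell (21.2% and 19% of all tested genes). Among the 5 were Ccn2, a matricellular factor (0.97 ± 0.27, edgeR adjusted p = 0.0101), and Thbs1, thrombospondin (1.23 ± 0.42, adjusted p = 0.0293). Thbs1 fell in lean tumors (-1.07 ± 0.42, adjusted p = 0.0487).

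Of the remaining muscle actins, Acta1, of skeletal muscle, had a count of 0 in 5 tumors and was not tested. It is 1 of the 9 skeletal muscle markers, and stood at 13.04 to 141 CPM in the 5 tumors with skeletal muscle RNA and at most at 0.562 CPM in the other 11. Actc1 and Actg2 were not called in lean (0.85 ± 0.75 and 0.45 ± 0.50) or obese tumors (-0.17 ± 0.79 and 0.51 ± 0.51). Of the other tropomyosins, calponins and transgelins 4 were tested. Tpm3 fell in lean tumors (-0.39 ± 0.09, edgeR adjusted p = 0.00248) without a call in obese tumors (-0.14 ± 0.09, adjusted p = 0.200). Tpm2, a muscle tropomyosin, rose in obese tumors (2.25 ± 0.73, adjusted p = 0.0236) and reached 37.5 CPM in obese ETS tumor 2, one of the tumors with skeletal muscle RNA. Tagln2 fell in lean tumors (-1.50 ± 0.38, adjusted p = 0.00544) but was higher in obese ETS tumors (1.25 ± 0.38, adjusted p = 0.0165).

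Myosin genes went in both directions. Myh9, the main nonmuscle myosin heavy chain, fell in lean tumors (-0.69 ± 0.19, edgeR adjusted p = 0.0107) with no overlap between 406 to 558 and 209 to 365 CPM. Mylk, which phosphorylates myosin light chains such as Myl9, rose there from between 28.2 and 51.8 to between 75.7 and 92.8 CPM (1.18 ± 0.17, adjusted p = 0.000115). Cald1, caldesmon, rose in both hosts, in lean (1.04 ± 0.19, adjusted p = 0.000613) and obese ones (0.62 ± 0.19, adjusted p = 0.0174). In all, 2 of 11 were higher and 3 lower in lean ETS tumors (21% and 22.8% of all tested genes). In obese ETS tumors 3 were higher and none lower (21.2% and 19% of all tested genes).

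Focal adhesion and crosslinking genes, to which Vcl belongs, had 11 of 21 called higher and 1 lower in obese ETS tumors (21.2% and 19% of all tested genes). In lean ETS tumors 3 were higher and 3 lower (21% and 22.8% of all tested genes). The difference of the effects was called for 6, all lower in lean tumors, where 10.1% of all tested genes were lower. Flna (filamin) fell in lean tumors from between 918 and 1181 CPM to between 491 and 677 CPM (-0.92 ± 0.24, edgeR adjusted p = 0.00619), and Actn1 (alpha-actinin) from between 86.1 and 122 to between 55.4 and 73.1 CPM (-0.73 ± 0.14, adjusted p = 0.000748). Zyx (zyxin) and Tns1 (tensin) rose in obese tumors (0.94 ± 0.25 and 1.61 ± 0.25, adjusted p = 0.00928 and 0.000278). Csrp1 rose in both hosts (0.71 ± 0.16 and 0.92 ± 0.16, adjusted p = 0.00263 and 0.000513). Before therapy 7 of the 21 were lower in obese tumors and none was higher (12.9% and 13.5% of all tested genes).

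Among 28 actin assembly genes, 6 were higher and 9 lower in lean ETS tumors (21.4% and 32.1%, beside 21% and 22.8% of all tested genes). In obese ETS tumors 7 were higher and 3 lower (25% and 10.7%, beside 21.2% and 19% of all tested genes). Tmsb4x encodes thymosin beta-4, which sequesters actin monomers. It stood at 321, 330.2, 198 and 235 CPM in lean tumors, at 104, 109.9, 75.4 and 86.6 CPM in lean ETS tumors, at 62.9, 88.2, 76.9 and 70.2 CPM in obese tumors and at 195, 105, 89.9 and 189 CPM in obese ETS tumors. With ETS it fell in the lean and rose in the obese host without overlap in either (log2 fold change -1.53 ± 0.24 and 0.96 ± 0.24, edgeR adjusted p = 0.000217 and 0.00579). Diaph1, a formin that builds filaments, showed the same signs in smaller steps (-0.38 ± 0.09 and 0.44 ± 0.09, adjusted p = 0.00484 and 0.00202). The capping and severing proteins Capg (1.29 ± 0.21 and 1.31 ± 0.21, adjusted p = 0.000286 and 0.000330) and Gsn (0.81 ± 0.17 and 0.93 ± 0.17, adjusted p = 0.00146 and 0.000713) rose in both hosts.

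Members share neighbors and copies in the genome, which could split or add reads. Actb (chr5:142903115-142907976 in GRCm38.p6) overlaps the gene model Gm38733, Actg1 (chr11:120345687-120348495) the microRNA Mir6935, Tagln (chr9:45929628-45936058) Pcsk7, Srf (chr17:46546838-46558267) the microRNA Mir6976, and Vcl (chr14:20929383-21033676) Gm52168, Gm30274 and Ap3m1. Counts of the pseudogenes Actg-ps1 and Tpm4-ps came to 0.152% to 0.220% of Actg1 and 0.243% to 0.530% of Tpm4.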

How the data were processed

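RNA was extracted with Trizol from whole tumors, and libraries were prepared with a stranded mRNA kit and read as paired ends. Per the labels' processing notes, the authors used bcl2fastq 2.20.0, Trimmomatic, HISAT2 2.1.0 with mm10 and StringTie 2.1.3b. The deposited counts are whole read counts per gene, not normalized, and the deposited TPM values come from the same step. The 16 FPKM columns were not used. Whether counting used strand is not given in the sources used here. A total of 29568 genes with a count of 0 in a tumor were excluded, as in the study's methods. The 16 tumors entered 1 edgeR 4.0.16 quasi-likelihood fit (R 4.3.3, TMM) with a mean per group. limma 3.58.1 on log2(TPM + 1), DESeq2 1.42.0 and other settings were alternatives. SEs are the log2 fold change divided by the root of F.

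The members and all gene lists were chosen with earlier results of these data known. Named were all members, Mrtfa, Mrtfb, Myocd, all actins, up to 3 other genes per list and comparison with the largest change among called genes with a mean of at least 1 CPM, the extremes of the references and the 5 nearest genes of Actb, Acta2 and Srf. The exclusion of 5 tumors with skeletal muscle markers above 40 CPM, and the ratio of Actb to Actg1, were chosen after the values were seen. No 2 tumors of a group agree within sampling noise (chi-square per degree of freedom 25.6 to 336).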

Additional observations from a re-analysis of the deposited data

Results flagged for a closer look

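By the edgeR interaction term, 2 of 10 members responded to ETS differently in the 2 hosts. The log2 differences, lean minus obese, were -0.91 for Actb (edgeR adjusted p = 0.0224) and -1.13 for Vcl (edgeR adjusted p = 0.0127). Both were lower in lean tumors, as were 10.1% of all tested genes, while 6.35% were higher. The members are treated as selected on these values, so nothing is read from the count. Neither call held without the 5 tumors with skeletal muscle RNA. FAO genes relative to Actb rose more in lean tumors, by 0.95 (exact permutation test, p = 0.0249). The gap between hosts before therapy enters this p-value. Actb is treated as selected on these values, so the p-value is no independent evidence about the FAO genes.

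The same term was called for 18 of the other named genes, most of them with a lower effect in lean tumors. The log2 differences were -0.66 for Mrtfb, -2.75 for Tagln2, -2.06 for Myh11, -3.75 for Myh10 and -1.06 for Myh9. They were -1.30 for Flna, -0.94 for Actn1, -1.23 for Tns1 and -1.28 for Zyx. They were -2.48 for Tmsb4x, -0.82 for Diaph1, -0.71 for Diaph2 and -1.74 for Rnd3. They were -2.30 for Thbs1, -3.67 for Egr2 and -2.41 for Egr1. Cnn3 (0.40) and Mylk (0.83) had the higher effect in lean tumors. These genes were named for large changes in the same comparisons, so their number is no result.

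No member had a stray tumor by Dixon's ratio in any of 40 sets of 4 tumors, where chance alone would give about 1 in 20.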

How the results depend on the processing

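Of 430 log2 fold changes of members under other settings, 398 kept direction and side of the threshold, 11 lost the call, 11 gained it and 10 turned sign. With a tumor left out it was 751 of 800, with 27 lost, 10 gained and 12 turned. The cause was not tested. On log2(TPM + 1) by limma, 7 members in place of 4 were called with ETS in lean tumors, 4 in place of 2 for the difference between hosts and 5 in place of 3 before therapy. On that scale the share of called genes that were higher was 15.7% against 48.0% in lean tumors, 9.24% against 38.7% for the difference, 29.0% against 51.0% before therapy and 83.8% against 58.7% after ETS. There the log2 fold changes in lean tumors turned to -0.17 (Acta2), -0.12 (Tagln) and -0.23 (Myl9), that of Srf in obese tumors to -0.038 and that of Tpm1 after ETS to 0.083.

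Without the 5 tumors with skeletal muscle RNA, a choice made after seeing the data, 1 member was called in lean tumors and 0 for the difference. Of the 96 other actin and Srf genes 9, 9 and 11 were called in lean tumors, for the difference and before therapy, and 0 after ETS. Acta2 and Tagln in lean tumors turned to -0.46 and -0.85, Tpm4 in obese tumors to 0.092 and Vcl after ETS to -0.029. The share of called genes that were higher was 11.5% for the difference and 34.7% before therapy. Of all tested genes 1722 were called in lean tumors in place of 7099, 1076 in place of 2660 for the difference, 1763 in place of 4280 before therapy and 2 in place of 904 after ETS. Fewer tumors enter that fit.

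After ETS the 10 called of the 96 other genes became 5 without the exclusion of genes at 0, 16 by the exact test, 17 by DESeq2 and 0 with only the groups compared. Over the whole table the 904 calls became 450, 1564, 2078 and 69.

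With a tumor left out, the members called ranged from 0 to 4 in obese tumors. The other genes called ranged from 17 to 31 before therapy (17 without obese tumor 4) and from 2 to 13 after ETS (2 without lean ETS tumor 3). Values that turned sign ranged from -0.059 to 0.094 for Actg1 after ETS, from -0.011 to 0.32 for Myl9 in lean tumors, from -0.21 to 0.51 for Cnn2 after ETS and from -0.14 to 0.00599 for Tpm1 after ETS. In obese tumors they ranged from -0.35 to 0.082 for Tpm4 and from -0.056 to 0.21 for Srf.

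FAO genes relative to Gapdh gave -0.23 in lean tumors and -0.73 for the difference. Relative to Tbp the obese rise was 0.87 and the difference -0.18, and relative to the mean of 15 reference genes 0.48 and -0.18. By the median over the genes the obese rise was 0.71, which passed (exact permutation test, p = 0.0286). With a tumor left out the obese rise relative to Actb ranged from 0.42 to 0.79. The difference between hosts ranged from 0.74 to 1.11 and lost the threshold without lean ETS tumor 2 (0.76, exact permutation test, p = 0.0584) and without obese ETS tumor 4 (0.74, exact permutation test, p = 0.0624).

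With the replicate number as a block, 3, 4, 2, 3 and 0 members were called in the 5 comparisons, against 4, 4, 2, 3 and 0 without it; Vcl in lean tumors lost its call. Actg1 after ETS turned to -0.000715 with the block, and the whole table gave 1683 calls after ETS in place of 904. Equal numbers share no source in the labels, so the numbers were not taken to pair the tumors. Of 24 correlations between tumors of equal number, 11 were over 0.1 (range -0.11 to 0.45). They were not compared with those of unequal number, so a source shared by number was not tested.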
